A study of Homo sapiens with 9 samples.

Results

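In the human leukemia line DND-41, derived from T-lineage acute lymphoblastic leukemia, 2747 stretches of H3K27ac away from promoter marks were called in the DMSO library and had no H3K27ac peak nearby in the ACBI library. These lost distal peaks were chosen by their width and by the 2 H3K27ac lists and the H3K4me3 list: peaks of the DMSO list from 1500 to under 3000 bp wide that overlapped no H3K4me3 peak and had no ACBI peak within 1 kb (hg19). None of the values that chose them is tested below. The DMSO list held 90495 peaks, of which 10734 were distal peaks of these widths. Of those 10734, 7439 were overlapped by an ACBI peak and are called kept. The remaining 548 had an ACBI peak within 1 kb that did not overlap them.

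The profiles came from CUT&RUN, in which an antibody guides a nuclease to its target and the released DNA is sequenced. The titles name an input control for RUNX1 and IgG controls otherwise, so the assay of the RUNX1 library may differ. H3K27ac was profiled in cells given 100 nM ACBI-1, a compound that sends SMARCA2, SMARCA4 and PBRM1 to the proteasome, and in cells given its vehicle DMSO. H3K4me3, RUNX1 and BRG1 were profiled in DND-41 cells whose labels name no treatment. With 1 library for each target and condition, nothing below could be set against replicates, and no p-value is printed. The labels do not state the length of treatment. The identity of the line was not checked against marker genes, since no hg19 annotation was used here, and regions are given by position alone.

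H3K27ac marks the nucleosomes of active promoters and enhancers, and H3K4me3 marks mainly active promoters, so H3K27ac without H3K4me3 is widely used to locate candidate enhancers. BRG1 (SMARCA4) is an ATPase of the SWI/SNF complexes, which slide and evict nucleosomes and keep enhancers accessible. RUNX1 is a DNA-binding factor needed for blood cell development and recurrently mutated in T-cell leukemia. "Distal" here rests on H3K4me3 alone and not on the distance to a gene.

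The DMSO and ACBI H3K27ac lists covered 127.2 and 70.8 Mb. The H3K4me3, RUNX1 and BRG1 lists held 12834, 19893 and 7445 peaks. The lists give positions alone, so the depth behind them is unknown. Intervals on shares are exact Clopper-Pearson 95% intervals, and those on differences are Newcombe 95% intervals. Both cover counting error only and treat neighbouring peaks as independent. Lost means not called near that place in ACBI, and a peak that was not called may still carry some of the mark.

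By the same 1 kb rule 51.0% of all DMSO peaks, 56.0% of all distal peaks and 25.6% of the distal peaks of 1500 to 3000 bp were lost. Of the 4096 H3K27ac peaks of the same widths on H3K4me3, 196 (4.79%) were lost. The lost distal peaks covered 5.36 Mb. They were 5.95% of all lost peaks and held 18.0% of the lost length, because most lost peaks were narrower. Their median width was 1848 bp (quartiles 1642 and 2177), against 2069 bp (1760 and 2466) for the kept peaks.

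The share lost fell with width inside the class. It was 32.5% (31.2 to 33.7) at 1500 to 2000 bp, 20.4% (19.0 to 21.8) at 2000 to 2500 bp and 15.8% (14.3 to 17.4) at 2500 to 3000 bp, each class without its upper end. The limits of the class did not fall at a step in the data. Among distal peaks of 1400 to 1500 bp 37.8% were lost, and among those of 1500 to 1600 bp 36.5%. At the upper end the shares were 15.7% at 2900 to 3000 bp and 13.5% at 3000 to 3100 bp. The 1 kb window divided a continuous range too. The 3 lost peaks nearest to an ACBI peak lay 1003, 1005 and 1007 bp from it, while 3 peaks at exactly 1000 bp fell outside the class. For 531 lost peaks (19.3%) the nearest ACBI peak was 1 to 2 kb away. At the opposite end, 886 (32.3%, 30.5 to 34.0) had none within 10 kb, 209 (7.61%) none within 50 kb and 98 (3.57%) none within 100 kb.

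Most lost distal peaks held neither factor. RUNX1 overlapped 285 of the 2747 (10.4%, 9.26 to 11.6), against 1249 of the 7439 kept peaks (16.8%, 15.9 to 17.7). BRG1 overlapped 80 lost peaks (2.91%, 2.32 to 3.61) and 478 kept ones (6.43%, 5.88 to 7.01). Both factors met in 64 lost peaks (2.33%, 1.80 to 2.97) and in 391 kept ones (5.26%, 4.76 to 5.79). The positions of RUNX1 and BRG1 played no part in choosing the peaks. The differences, lost minus kept, were -6.41 percentage points for RUNX1 (-7.80 to -4.96), -3.51 points for BRG1 (-4.32 to -2.63) and -2.93 points for both (-3.66 to -2.13). They depended on how far a peak had to be from ACBI H3K27ac. For the 1397 peaks with no ACBI peak within 5 kb, the difference was -0.68 points for RUNX1 (-2.71 to 1.50), -1.70 points for BRG1 (-2.85 to -0.35) and -1.18 points for both (-2.24 to 0.09). The intervals for RUNX1 and for both factors then included 0. The kept peaks were still all 7439, with no like demand on their distance from other H3K27ac. Among peaks with no other DMSO peak within 5 kb, RUNX1 was in 23.4% of 513 lost and 38.1% of 964 kept ones. With none within 20 kb the shares were closer and their intervals overlapped. RUNX1 was then in 35.3% (27.3 to 44.1) of 133 lost and 39.3% (33.4 to 45.5) of 262 kept peaks.

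Kept peaks were wider, and wider peaks held factors more often, so the shares were also read within width classes. At 1500 to 2000 bp RUNX1 was in 10.1% of lost and 13.0% of kept peaks. At 2000 to 2500 bp it was in 9.36% and 18.1%, and at 2500 to 3000 bp in 14.0% and 22.4%. BRG1 was in 2.45% to 3.28% of the lost peaks across the 3 classes, and rose from 5.27% to 8.0% of the kept peaks. With kept peaks weighted to the widths of the lost ones in 100 bp classes, the differences were -4.56 points for RUNX1 and -2.83 points for BRG1.

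**Figure D1:**
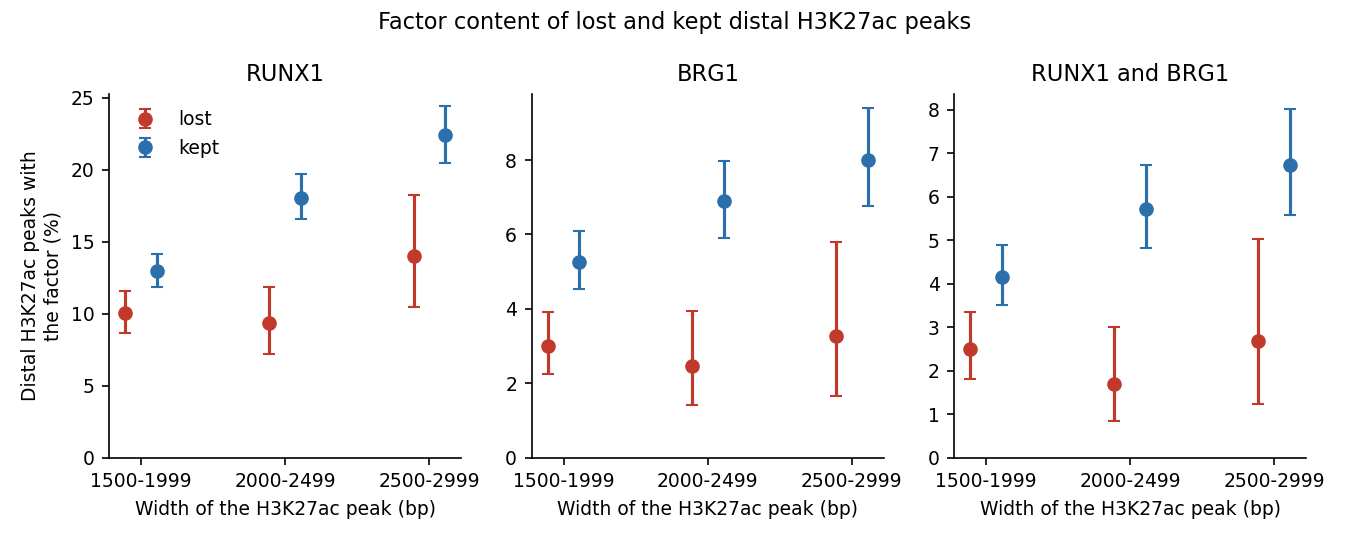
Share of lost (red) and kept (blue) distal H3K27ac peaks that overlap RUNX1, BRG1 or both (vertical axes, percent), in 3 classes of H3K27ac peak width (horizontal axis, bp). Points are shares and bars exact 95% intervals; the lost peaks lie below the kept peaks in each class and panel, for RUNX1 between 9.36% and 14.0% against 13.0% to 22.4%.

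Read from the side of the factors, distal peaks of these widths with both RUNX1 and BRG1 were lost in 14.0% of cases (11.0 to 17.5; 64 of 457). Those with BRG1 alone were lost in 15.5% (9.15 to 24; 16 of 103), those with RUNX1 alone in 20.2% (17.9 to 22.7; 221 of 1094) and those with neither in 26.9% (26.0 to 27.9; 2446 of 9080). The intervals for both factors and for RUNX1 alone did not overlap, and that for BRG1 alone was wide and reached into both. The shares also fell with width. At 1500 to 2000 bp the share lost was 24.04% with both factors (18.0 to 30.9), 30.7% with RUNX1 alone (26.4 to 35.3) and 33.1% with neither (31.7 to 34.4). At 2000 to 2500 bp it was 7.38% (3.74 to 12.8), 14.2% (10.8 to 18.3) and 22.01% (20.5 to 23.6), and at 2500 to 3000 bp 7.2% (3.35 to 13.2), 12.3% (8.82 to 16.4) and 17.2% (15.5 to 19.2). In each class the share lost was lowest with both factors and highest with neither among these 3 groups. The intervals for both factors and for RUNX1 alone overlapped in each class, however. Those for RUNX1 alone and for neither overlapped at 1500 to 2000 bp and at 2500 to 3000 bp. BRG1 alone had no fixed place in the order, with 9 of 46, 5 of 33 and 2 of 24 peaks lost from the narrow to the wide class, and its intervals were wide.

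Where a factor was present, its peak looked much alike in lost and kept regions. RUNX1 peaks inside lost regions had a median width of 425.5 bp (quartiles 244.75 and 619.5, n = 318) and those inside kept regions 429 bp (261.5 and 622, n = 1407). BRG1 peaks had medians of 250 bp (n = 81) and 263 bp (n = 494). More than 1 RUNX1 peak was found in 11.2% of the RUNX1-bearing lost regions and in 11.7% of the kept ones. RUNX1 sat nearer to the edge in lost regions, which were also narrower, with a median of 1880 bp against 2231 bp for kept regions with RUNX1. In lost regions 64.5% of the RUNX1 peaks had their midpoint in the middle 50% of the H3K27ac peak, against 73.7% in kept regions. In lost regions 82.4% of the RUNX1 peaks lay wholly inside the H3K27ac peak, against 91.5% in kept regions. Within width classes the midpoint shares were 64.6%, 64.7% and 63.6% in lost and 69.6%, 75.4% and 76.1% in kept regions, from narrow to wide. The shares wholly inside were 80.5%, 83.8% and 87.3% in lost and 90.1%, 90.3% and 94.2% in kept regions.

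The 5 widest lost peaks with both factors show how these sites were arranged. The widest measured 2953 bp, on chromosome 18 (14610915 to 14613867). Its single RUNX1 peak of 291 bp enclosed a BRG1 peak of 170 bp, and the nearest ACBI peak was 43730 bp away. The second, 2764 bp on chromosome 4 (111282041 to 111284804), had a BRG1 peak of 341 bp inside a RUNX1 peak of 968 bp, with ACBI H3K27ac 140306 bp away. On chromosome 1 (221880169 to 221882921), a peak of 2753 bp held 3 RUNX1 and 2 BRG1 peaks and lay 18439 bp from an ACBI peak. The fourth, on chromosome 5 (86415639 to 86418354), stood alone: the nearest other DMSO peak, a kept one, was 144663 bp away. The fifth, on chromosome 8 (145015529 to 145018200), held 1196 bp of RUNX1 and 150 bp of BRG1 and lay 40162 bp from ACBI H3K27ac. All 5 were more than 10 kb from the nearest ACBI peak, farther than the median of 5131 bp over all lost distal peaks. Such gaps were common among the 301 lost peaks with a factor. Their median was 20025 bp, above the gap of the third region, and 34.6% of them lay within 10 kb.

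Lost distal peaks lay farther from other H3K27ac than kept ones. The nearest other DMSO peak of any kind was a median of 1601 bp away (quartiles 926.5 and 3462), against 1151 bp (791 and 2419) for kept peaks. The nearest other kept peak was a median of 5930 bp away (2172.5 and 16604.5), against 2327 bp (943.5 and 8544.5). The rule itself adds to this second gap, since a close kept neighbour often brings an ACBI peak within 1 kb. It can add to the first gap in the same way. Of distal peaks of these widths with another DMSO peak under 1 kb away, 7.66% had an ACBI peak within 1 kb that did not overlap them. Beyond 20 kb from another DMSO peak the share was 0.25%. For both gaps the order was the same in the 3 width classes, and the rule acts in each class. From narrow to wide the median gaps to a kept peak were 6555.5, 4934.5 and 4643 bp for lost peaks and 2636, 2151.5 and 2157 bp for kept peaks. To any other DMSO peak they were 1659, 1484.5 and 1584 bp for lost and 1201, 1101.5 and 1126 bp for kept peaks. Promoter marks were somewhat farther from lost peaks: the nearest H3K4me3 peak was a median of 38701 bp (36454 to 41353, 95% interval of the median) from lost peaks and 33919 bp (32487 to 35098) from kept ones. Within 5 kb of H3K4me3 lay 8.34% of the lost and 9.42% of the kept peaks.

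By their medians, lost peaks that held a factor were the most secluded of the 4 classes formed by loss and factor content. The 301 of them had a median gap of 22755 bp to a kept peak (17938 to 26365), against 5261 bp (4941 to 5687) for the 2446 lost peaks without a factor. Kept peaks with and without a factor had medians of 10877.5 and 1806 bp. The gap to the nearest other DMSO peak is measured without ACBI data, though the split into lost and kept uses them. Its medians were 3688 and 1510 bp among lost peaks and 2105 and 1082 bp among kept peaks. The nearest H3K4me3 peak was a median of 95424 bp from lost peaks with a factor and 35743.5 bp from those without. More than 100 kb from H3K4me3 lay 48.2% of the lost peaks with a factor and 21.1% of those without. Kept peaks followed the same order, with 40.8% and 18.0%.

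**Figure D2:**
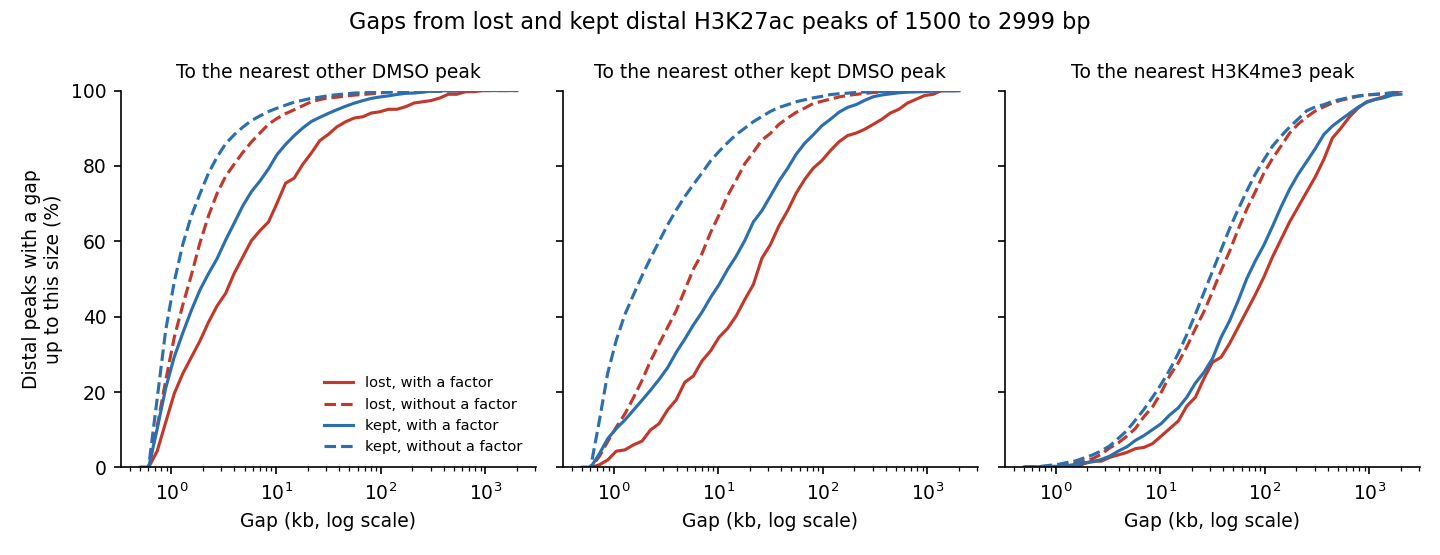
Cumulative share of distal H3K27ac peaks of 1500 to 3000 bp (vertical axis, percent) by the gap to the nearest other DMSO peak, the nearest other kept DMSO peak and the nearest H3K4me3 peak (horizontal axes, kb, log scale), for lost (red) and kept (blue) peaks with (solid) and without (dashed) RUNX1 or BRG1. The curve of lost peaks with a factor lies farthest right over most of its length. Its median gap was 3688 bp to another DMSO peak and 22755 bp to a kept peak, and the 1 kb rule can add to both.

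Because factor-bearing peaks stood apart from other H3K27ac, loss was also compared at like isolation. Among distal peaks of these widths with another DMSO peak under 1 kb away, 12.5% (9.51 to 16.0; n = 424) of those with a factor and 19.9% (18.6 to 21.2; n = 3846) of those without were lost. At gaps of 5 to 20 kb the shares were 21.5% (17.4 to 26.1; n = 358) and 40.9% (37.3 to 44.5; n = 741). Beyond 20 kb they were 31.0% (24.2 to 38.5; n = 171) and 35.6% (29.3 to 42.2; n = 225), and the intervals overlapped. Over all peaks with no other DMSO peak within 5 kb, those with a factor were lost less often by 15.1 points (interval of the difference -19.7 to -10.2), at 24.6% against 39.6%. The factor-bearing ones had a median width of 2071 bp and the others 1826 bp, and peaks without one weighted to their widths were lost in 36.5% of cases. When kept peaks were weighted to both the widths and the gaps of the lost ones, RUNX1 was in 17.1% of them, which is 6.76 points more than in the lost peaks. This weighting was chosen after seeing the data.

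The 5 lost peaks farthest from any ACBI peak were extreme cases of this seclusion, and 4 of them held RUNX1. The farthest, 1541 bp on chromosome 8 (139174951 to 139176491), held no factor and was 1568911 bp from ACBI H3K27ac and 668744 bp from another DMSO peak. The second, 2565 bp on chromosome 17 (69419330 to 69421894), held a RUNX1 peak of 605 bp and a BRG1 peak of 469 bp that overlapped each other, 1291872 bp from an ACBI peak. The third, 2814 bp on chromosome X (98856853 to 98859666), held RUNX1 alone and was 1215425 bp from an ACBI peak. On chromosome 3 (102721183 to 102722810), a peak of 1628 bp had both factors and a gap of 1151597 bp. On chromosome 8 (122736502 to 122738345), a peak of 1844 bp held 2 RUNX1 peaks and 1 BRG1 peak and had a gap of 992099 bp. The nearest H3K4me3 peak was between 1054221 and 2290300 bp from each of these 5. RUNX1 was common so far out: it was in 32.2% of all 1147 distal peaks of these widths beyond 200 kb from H3K4me3. These 5 were picked by their gap to ACBI peaks, so they say little of RUNX1 in remote lost peaks.

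The 10 widest lost distal peaks, of 2975 to 2995 bp, held no RUNX1 and no BRG1 and lay 2262 to 12497 bp from an ACBI peak. Among all 335 lost peaks of 2500 to 3000 bp 14.6% (11.02 to 18.9) held a factor, so 10 peaks say little of the widest ones in general. The 2 widest, both of 2995 bp, were on chromosome 19 (3664953 to 3667947) and chromosome 3 (152025454 to 152028448). The third was on chromosome 9 (127616281 to 127619274) with a RUNX1 peak 852 bp outside it. The sixth, on chromosome 11 (12124901 to 12127882), was the one farthest from ACBI H3K27ac and belonged to an unbroken series of 12 lost peaks. The seventh, on chromosome 3 (129167286 to 129170266), the ninth, on chromosome 2 (242566829 to 242569807), and the tenth, on chromosome 18 (77115844 to 77118818), each stood between 2 kept peaks. The fourth lay on chromosome 14 (89701137 to 89704128), the fifth on chromosome 18 (43698314 to 43701297) and the eighth on chromosome 4 (3208672 to 3211651).

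Lost distal peaks tended to lie among other lost peaks. Both neighbours in the DMSO list, of whatever width, were lost for 1086 of the 2747 (39.5%, 37.7 to 41.4), against 1488 of the 7439 kept peaks (interval 19.1% to 20.9%). For lost peaks with a factor the share was 45.5% (39.8 to 51.3; n = 301) and for those without 38.8% (36.9 to 40.8; n = 2446), with overlapping intervals. Both neighbours were kept for 10.8% of the lost and 27.9% of the kept peaks. Part of this follows from the 1 kb window. Among neighbours more than 5 kb away, which the window touches less, 64.8% (1290 of 1990) were lost beside lost peaks and 59.8% (2418 of 4046) beside kept ones. Both shares were above the 51.0% lost among all DMSO peaks. Every lost status here comes from the same pair of H3K27ac lists that chose the peaks, so these values are a description.

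The same held for neighbours of like width. Of the distal peaks of 1500 to 3000 bp lying 5 to 10 kb from a lost one, 33.6% were lost, against 19.0% of those at that distance from a kept one. At 50 to 100 kb the shares were 30.8% and 21.3%, and at 500 to 1000 kb 26.8% and 24.7%, close to the 25.6% of the whole class. The next distal peak of these widths along the chromosome was lost after 31.6% of lost and 23.3% of kept peaks. The longest series of lost peaks within the width class counted 10, and 24.8% of the lost peaks stood in series of at least 3. For kept peaks, 69.3% of the class, the longest counted 30 and 78.8% stood in series of at least 3. A more frequent status gives longer series, and the lengths under a random order were not tested. These series pass over narrower and wider DMSO peaks.

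**Figure D3:**
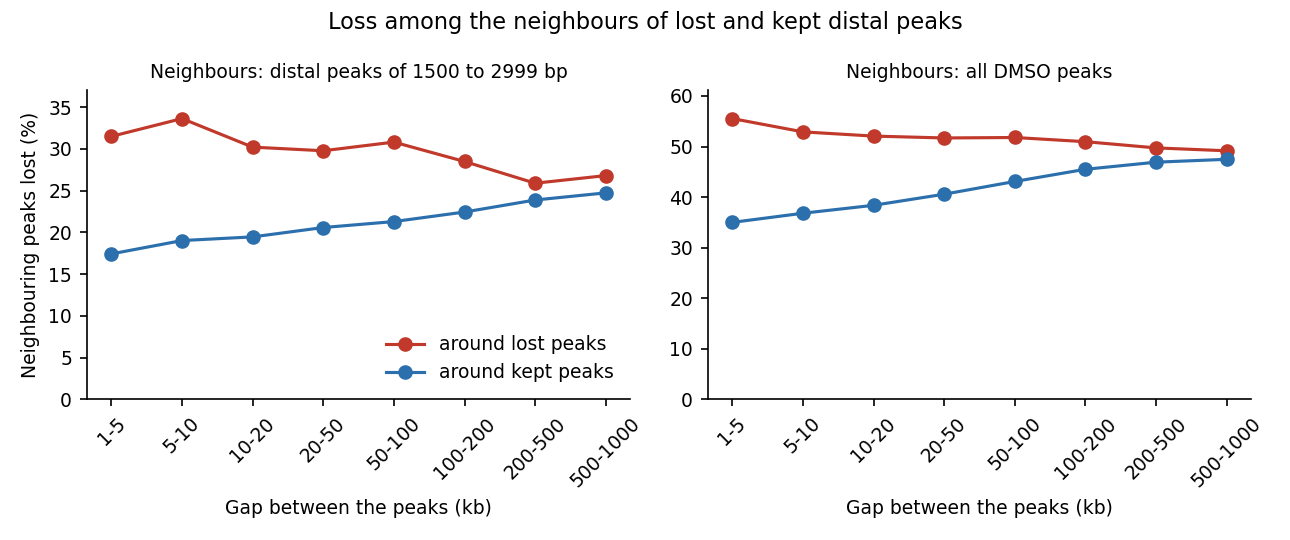
Share of neighbouring peaks that were lost (vertical axes, percent) by their gap (horizontal axes, kb) from lost (red) or kept (blue) distal peaks of 1500 to 3000 bp. Neighbours are distal peaks of the same widths (left) or all DMSO peaks (right); the 2 lines approach each other with distance, from 33.6% and 19.0% at 5 to 10 kb to 26.8% and 24.7% at 500 to 1000 kb on the left.

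Counting all DMSO peaks in order, the lost distal peaks fell into 2420 runs, a run being an unbroken series of lost peaks of any width. A run held a median of 3 peaks (quartiles 2 and 6, at most 27) and spanned a median of 14.97 kb (4.49 and 51.8). Over all 17225 runs of lost peaks the median was 2 peaks (1 and 3, at most 27) and the median span 4.27 kb. A longer run has more peaks that can belong to the width class, so runs that hold one are longer by selection. Of all DMSO peaks 51.0% were lost. Together the 2420 runs held 10383 lost peaks and 9.91 Mb of lost H3K27ac. In 424 cases (15.4%) the lost distal peak was a run of its own, with no lost peak on either side. At the other end, 1112 (40.5%) stood in runs of at least 5 lost peaks and 284 (10.3%) in runs of at least 10. A run was shared with another lost distal peak of these widths by 592 of them (21.6%). Of the 2420 runs 217 held 2 of them, 37 held 3, 9 held 4, and 1 each held 5 and 6.

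The run with the most was on chromosome 18 (43935635 to 43978033). In 42.4 kb it held 12 lost peaks, 6 of them distal peaks of 1534 to 2354 bp, and lost H3K27ac made up 31.5% of its length. No peak of this run overlapped RUNX1, BRG1 or H3K4me3, no ACBI peak fell between its ends, and kept peaks bounded it 1258 and 1649 bp away. The second, on chromosome 7 (155443755 to 155518257), held 17 lost peaks in 74.5 kb, 5 of them in the width class and again none with a factor. A single ACBI peak lay in a gap of this run. Each of the next 9 runs held 4 lost distal peaks, and the 3 longest of them are described. The longest, on chromosome 6 (40364721 to 40930270), spread 25 lost peaks over 565.55 kb, 6 of them with RUNX1 and 1 with BRG1. Its most remote peak was 306255 bp from ACBI H3K27ac. The next, on chromosome 9 (20246551 to 20506341), held 27 lost peaks, 2 with RUNX1, in 259.8 kb. The last of the 3, on chromosome 2 (28419518 to 28590208), held 14, 3 of them with RUNX1, in 170.7 kb. Lost peaks covered 24.4% of the span of the second run. Over the 9 runs with 4 lost distal peaks the span ranged from 24.8 to 565.55 kb and the covered share from 68.2% to 3.44%, so the 3 longest are also the sparsest.

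**Figure D4:**
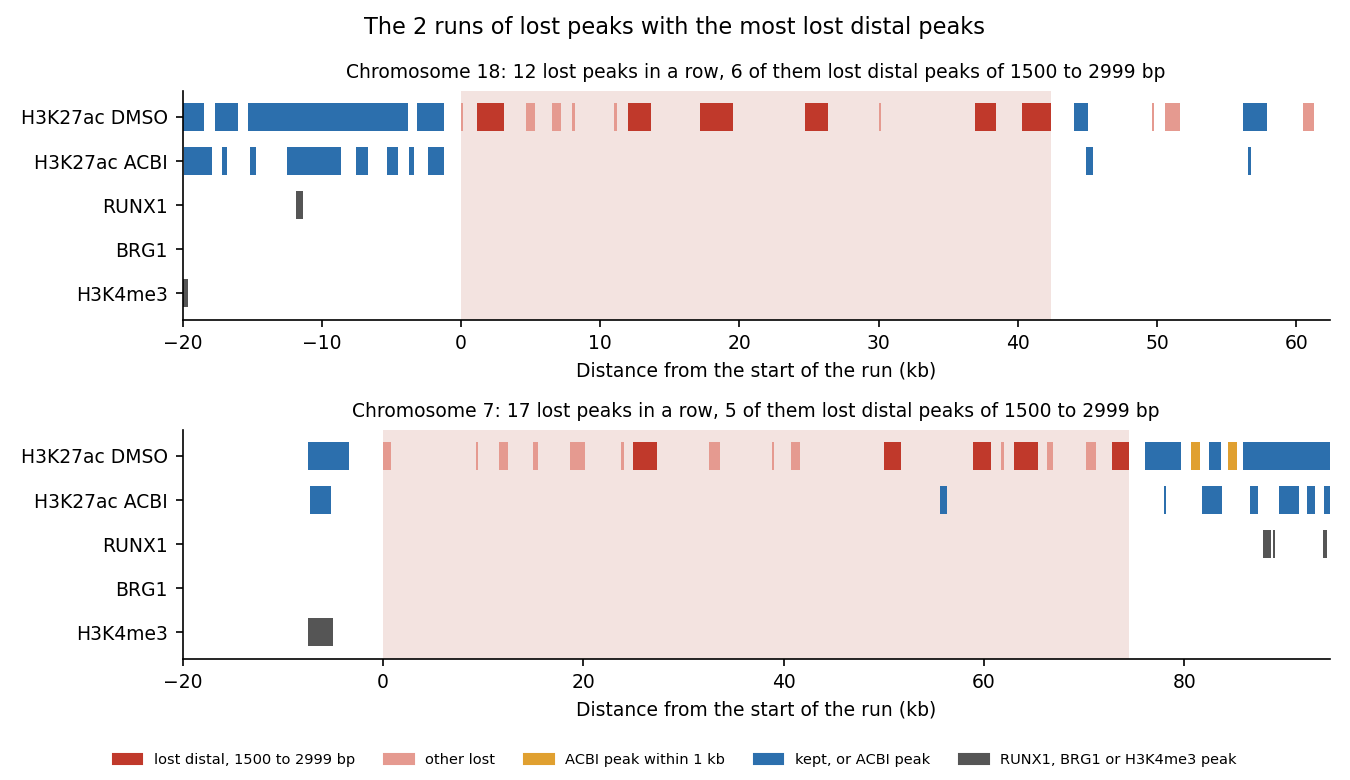
Peaks of the 5 lists (rows) along the 2 runs of lost peaks that hold the most lost distal peaks, by distance from the start of the run (horizontal axes, kb); the shaded area is the run, and each bar is a peak drawn to scale. On chromosome 18, 6 lost distal peaks (dark red) lie within 42.4 kb without an ACBI peak, between kept peaks (blue); on chromosome 7, 5 lie within 74.5 kb that hold 1 ACBI peak.

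Lost distal peaks were found on each of the 24 chromosomes of the DMSO list. The share lost was highest on chromosome 8, at 36.3% (31.9 to 41.0; 161 of 443), against 25.1% (2586 of 10291) on the other chromosomes together. Chromosomes 11 (30.9%, 26.8 to 35.3) and 10 (30.7%, 26.3 to 35.3) came next. The lowest shares were on chromosomes 20 (18.3%, 14.4 to 22.7), 22 (18.4%, 14.7 to 22.6), 4 (18.4%, 14.6 to 22.8) and 19 (18.9%, 15.6 to 22.6), whose intervals overlap. Chromosomes 19, 20 and 22 were also the lowest over DMSO peaks of every width, with 39.3%, 39.0% and 40.2% lost, while chromosome 4 was not, with 53.6% lost. Chromosome 8 had 56.8% lost over all widths, against 51.0% of all DMSO peaks. It stood out little there, with chromosomes Y (56.1%), 15 (56.0%) and 5 (55.7%) close to it. Copy number was not used here, and its part in these differences was not tested.

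**Figure D5:**
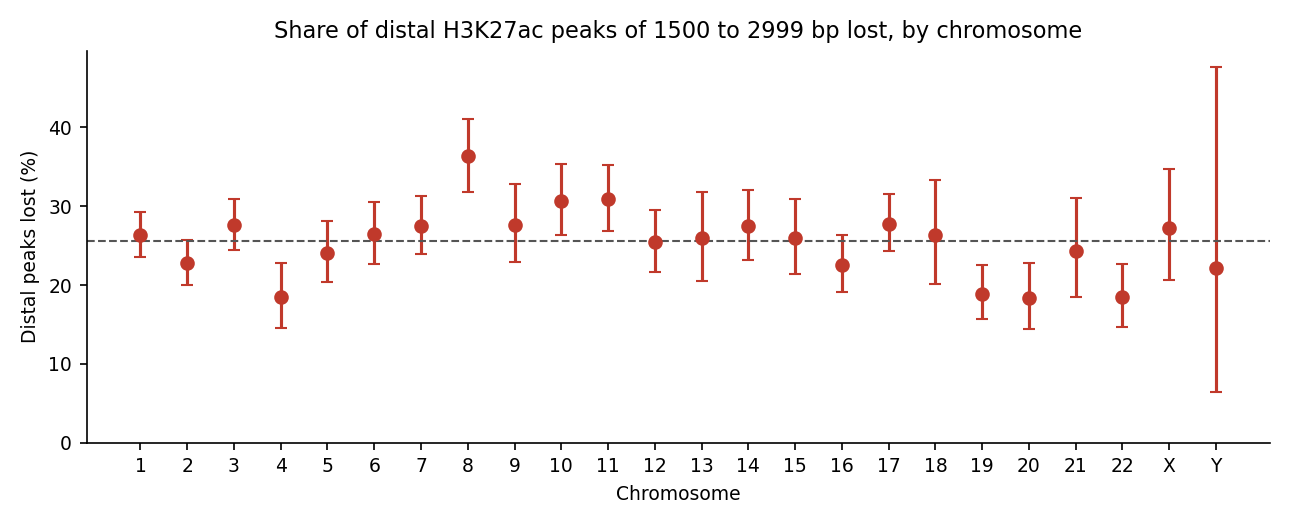
Share of distal H3K27ac peaks of 1500 to 3000 bp that were lost (vertical axis, percent) on each chromosome (horizontal axis), with exact 95% intervals as bars and the share over all chromosomes, 25.6%, as a dashed line. Chromosome 8 lies highest at 36.3%, and chromosomes 4, 19, 20 and 22 lie lowest at 18.3% to 18.9%; the 18 peaks of chromosome Y give a wide interval.

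Within chromosomes the losses were spread widely. Of the 5 Mb bins, 348 had at least 10 distal peaks of these widths, and each of these held at least 1 lost peak. The share lost per bin had quartiles of 17.5% and 33.3% and exceeded 50% in 14 bins. Of the 19 such bins on chromosome 8, 13 were above the overall share, against 167 of all 348 bins. The higher shares there were thus not confined to a single bin. The highest shares were on chromosome 8 at 15 to 20 Mb (7 of 10 lost) and 55 to 60 Mb (11 of 16). Next came chromosome 1 at 220 to 225 Mb (10 of 15), chromosome 8 at 115 to 120 Mb (10 of 15) and chromosome 11 at 10 to 15 Mb (11 of 19). The lowest were on chromosomes 15 (20 to 25 Mb) and 20 (10 to 15 Mb), each with 1 of 23 lost. They were followed by chromosome 5 (150 to 155 Mb, 1 of 19) and chromosome 6 (5 to 10 Mb, 1 of 18). Chromosomes 2 (175 to 180 Mb) and 22 (50 to 55 Mb) tied after these, each with 1 of 17. With 10 to 23 peaks per bin the intervals are wide: 34.8% to 93.3% for the highest and 0.110% to 21.9% for the lowest.

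The share lost was lowest close to promoter marks, nearly level from 2 to 50 kb and somewhat higher beyond 50 kb. It was 18.6% (14.1 to 23.8, n = 264) under 2 kb from an H3K4me3 peak. There an ACBI peak at the promoter mark can itself lie within 1 kb and take a peak out of the lost class. The share was 24.6% at 2 to 5 kb, 24.5% at 5 to 10 kb, 24.4% at 10 to 20 kb and 24.1% (22.5 to 25.8, n = 2778) at 20 to 50 kb. It was 28.1% (26.02 to 30.2, n = 1842) at 50 to 100 kb, 26.9% (24.4 to 29.4, n = 1236) at 100 to 200 kb and 28.8% (26.2 to 31.5, n = 1147) beyond 200 kb. RUNX1 content rose along the same range, from 7.95% of the peaks under 2 kb to 32.2% beyond 200 kb.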

How the data were processed

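Peak lists of 5 libraries were used: H3K27ac in DMSO and in ACBI, H3K4me3, RUNX1 and BRG1. Groups were taken from the sample titles, and the 4 control libraries were not analysed here. The RUNX1 control is titled input and the other controls IgG, and the assay of each library was not checked. The files deposited by the authors give a position and a name for each peak in 4 columns, with no signal or count. The build hg19 and the callers MACS2 and SEACR are named per the submitters' processing notes. Both H3K27ac lists are broad peaks at q below 0.01, per the file headers. Thresholds of the other lists, the aligner and pooling were not given in the sources. Lower depth or higher background shortens a list too, and cannot be told apart from the treatment with 1 library each.

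Overlap meant at least 1 bp, and a gap the bases between peaks. Python 3.11.15, numpy 2.4.6, pandas 2.3.3, scipy 1.17.1 and matplotlib 3.10.9 were used. Gaps were checked against bedtools 2.31.1 for the 90495 DMSO peaks and 4 lists, with 0 differing, and the functions were tested on simulated peaks. Named regions were the 10 widest, the 5 farthest from ACBI, the 5 widest with both factors, the 5 runs with the most members (ties by length), the 5 highest and lowest bins, and 3 on each side of the 1 kb limit. The peaks and these rules were chosen with earlier results of these data known. No hg19 genome or annotation was used here, so no sequence or gene is given.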

Additional observations from a re-analysis of the deposited data

How the results depend on the processing

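No paired analysis was possible because each group has 1 library. Alternatives were run 97 times over the reported values: 74 fell inside the reported interval and 23 outside it. Of the 74, 18 equalled the reported value, 9 in the 500 bp merge and 6 with the widest DMSO peaks, where they could not move. Shares and gaps cannot change sign. No difference changed sign, but 2 intervals came to include 0. With no overlapping ACBI peak required in place of none within 1 kb, 30.7% of the class was lost, the median gap to a kept peak was 4621 bp and 23.8% shared a run. With no ACBI peak within 5 kb, 13.0% were lost and the gap was 15192 bp. The factor differences from all kept peaks were then -0.68 (RUNX1), -1.70 (BRG1) and -1.18 points (both), the intervals for RUNX1 and both including 0. The next distal peak was lost more often by 13.4 points, and lost peaks with a factor were 5956.5 bp from another DMSO peak. At 1000 to 4000 bp, 32.4% were lost, 41.5% shared a run and the next peak differed by 12.9 points. With the DMSO list reduced to its widest peaks, as many as the ACBI list has, the gap to a kept peak was 6854 bp, 23.2% shared a run and peaks with a factor were 7575 bp from another. Standardised for width in 3 and 15 classes, RUNX1 differed by -4.95 and -4.56 points. Merging across gaps of up to 500 bp changed nothing, because the smallest gap between these peaks and another DMSO peak was 633 bp. Merging across 1000 bp, added after seeing the data, gave 35.3% lost, -7.95 points for RUNX1, 6908 bp to a kept peak, 25.8% sharing a run and 5438 bp for peaks with a factor. Results without chromosome 8, and for the autosomes and X, stayed within the intervals. With depth unknown, a peak under the caller's limit in ACBI cannot be told from one without the mark.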

Other observations

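The 548 distal peaks of 1500 to 3000 bp that no ACBI peak overlapped but that had one within 1 kb differed from both other classes in factor content. RUNX1 was in 17 of them (3.10%, 1.82 to 4.92), against 10.4% of the lost and 16.8% of the kept peaks. BRG1 was in 2 of them (0.36%, 0.04 to 1.31). They were 7.27 points (5.16 to 8.94) below the lost peaks for RUNX1, and 7.38 points below them when weighted to the widths of the lost peaks. Their median gap to another DMSO peak was 898.5 bp and to a kept peak 1019 bp, and 96.7% had another DMSO peak within 5 kb. They make up 548 of the 3295 distal peaks of these widths that lost every overlapping ACBI peak call. The shares for lost peaks therefore depend on whether this class is counted with them.

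Distal peaks near the outermost DMSO peak of a chromosome were lost somewhat less often. The share was 21.3% (18.7 to 24.1; n = 921) within 2 Mb of it and 26.4% (25.3 to 27.6; n = 5752) at 20 Mb or more. The ACBI peak nearest to a lost distal peak was itself outside every DMSO peak in 19.5% of cases, against 21.4% of all ACBI peaks.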
